A study of Gallus gallus with 2 samples.

Results

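The transcription factors described here are 8 genes grouped as B lineage factors: the Ikaros family genes IKZF1, IKZF2, IKZF3 and IKZF5, and EBF1, PAX5, SPI1 and BCL11A. They were taken as every probe set of the array whose platform gene symbol is 1 of these 8, which gave 23 of 38439 probe sets outside the manufacturer's controls and 8 of 13009 genes. The samples were 1 wild-type and 1 PTIP deficient clone of DT40, an established chicken B cell line from the bursa of Fabricius, both cultured at 39 °C. PTIP, the product of PAXIP1, has roles in the response to DNA damage and as a subunit of a complex that methylates histone H3 at K4, and the labels write the deficient genotype as PTIP-/-/-. Each genotype was measured on 1 array without replication of culture or clone, so that a difference between genotypes cannot be told apart from a difference between 2 clones, and no test or p-value exists for any value below.

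B lymphocytes are specified by a small network of transcription factors, best studied in the mouse. SPI1 (PU.1), an ETS-domain factor, and the zinc finger protein Ikaros act in early lymphoid progenitors; EBF1 and PAX5 then activate B cell genes, and PAX5 also represses genes of other lineages. Ikaros family proteins bind DNA through zinc fingers near their N terminus, pair with each other through fingers near the C terminus, and recruit chromatin complexes such as NuRD. In DT40, loss of PAX5 has been studied as a model of the step from B cell to plasma cell.

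The deposited values are linear signal intensities, already scaled to a common mean in both arrays. A probe set was taken as measured where its signal reached 31.0, percentile 40 of all values outside the controls. A stricter mark of 131.5 was the highest signal among the array's reporter probe sets, apart from 1 bright signal. Log2 ratios are PTIP deficient minus wild-type, 2-fold is the bar for a described difference, and a gene is represented by its brightest probe set. No fold is given below 131.5 in both arrays, and a fold with 1 signal under 131.5 is a bound against that mark. Counts and medians use the floor of 31.0 unless stated, so that a gene counted past 2-fold can have a bound under 2-fold, as LY6E and CYBB do.

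Across the arrays, 59.6% and 60.4% of probe sets were measured in wild-type and PTIP deficient cells. The disrupted gene PAXIP1 had 1045 in wild-type against 593 in PTIP deficient cells with its 1 measured probe set, and its other probe sets were under the floor in both arrays. Whether they lie inside or outside the targeted exons is not stated in the labels or files, so they do not check the genotype. The only repeat measurement is that of several probe sets for a gene: the log2 ratios of the 2 brightest differed with an SD of 0.50 over 4284 genes, and with an SD of 0.38 over the 3069 genes whose second probe set had a mean signal of at least 131.5. This covers probe error and not the spread between cultures. The 27 probe sets of transcripts added at hybridisation were all higher in the PTIP deficient array, at a median log2 ratio of 0.30. They are repeat probe sets of a few transcripts. The 36 probe sets of the poly-A controls had a median log2 ratio of 0.08. The count with the arrays scaled on the hybridisation controls is given beside the first count below.

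SPI1, IKZF1 and EBF1 had lower signals in PTIP deficient cells with every probe set, IKZF3, IKZF5 and BCL11A were close to their wild-type signals, and PAX5 and IKZF2 were too dim for a fold. SPI1 was the only 1 of the 8 genes to pass 2-fold, downward, and 4.46% of the 9165 genes with a ratio were lower by 2-fold or more. With the arrays scaled on the hybridisation controls, a setting chosen after seeing the data, 3 genes passed 2-fold. Their log2 ratios were -1.35 for SPI1, -1.24 for IKZF1 and -1.08 for the dim IKZF2. The share of all genes that passed 2-fold at that scaling was not counted. Without that scaling, 7.17% of all measured genes had a log2 ratio at or below that of IKZF2. None of the 8 was higher by 2-fold or more, which 5.03% of all measured genes were. The ratio was below 0 in 6 of the 8, against 47.4% of all measured genes. The median log2 ratio of the 8 genes, the dim PAX5 and IKZF2 included, was -0.40, and that of all measured genes was 0.03. Over the 6 genes at or above 131.5 in both arrays the median was also -0.40, against 0.02 over all genes at such signals. The 2 medians are not separate results, since both fall midway between EBF1 (-0.63) and IKZF5 (-0.17). Of the 23 probe sets, 18 were measured in both arrays, 1 in wild-type cells alone and 4 in neither, and 14 reached 131.5 in both arrays. Of the 18, 2 were at least 2-fold lower (4.69% of all measured probe sets) and 14 had a ratio below 0 (48.7% of all). Of the 14 brighter ones, 12 had a log2 ratio below 0 and 2 above, with a median of -0.37. The share below 0 among all probe sets at such signals was not counted. The 14 are repeat measurements of 6 genes, and 4 of them belong to BCL11A. Of these 6 genes, 5 had a ratio below 0 with the brightest probe set, against 47.6% of the 6658 genes at such signals.

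**Figure D1:**
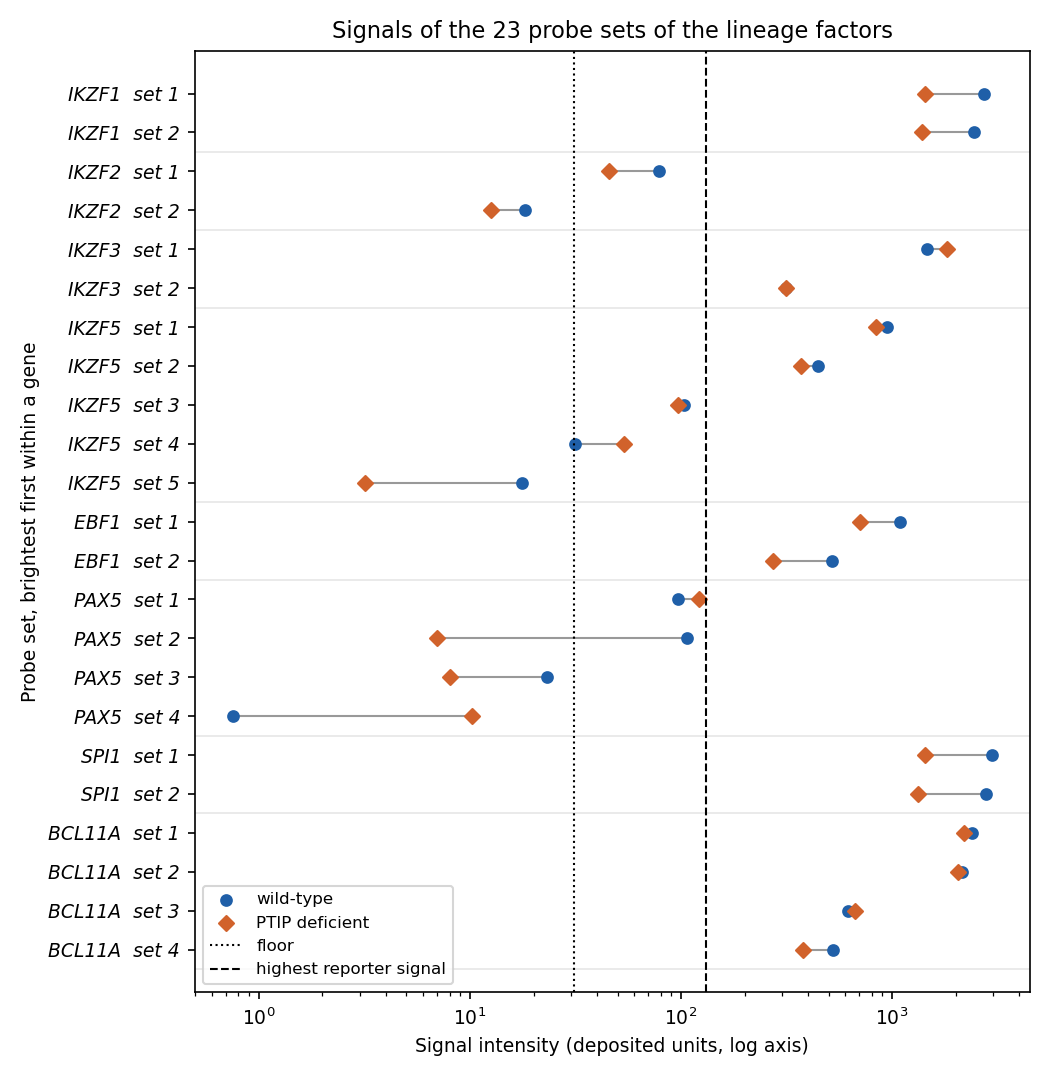
Signal intensity (log axis) of each of the 23 probe sets in the wild-type array (circles) and the PTIP deficient array (diamonds), brightest probe set first within a gene; the dotted line is the floor of 31.0 and the dashed line the highest reporter signal of 131.5. Both probe sets of SPI1, IKZF1 and EBF1 lie to the right of the dashed line and are lower in PTIP deficient cells, while all probe sets of PAX5 and IKZF2 lie to its left.

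SPI1 (Entrez gene 395879, chromosome 5) encodes PU.1, which is needed for macrophages, granulocytes and early B cells in the mouse. With its brightest probe set the signal was 2968 in wild-type against 1429 in PTIP deficient cells, a 2.08-fold lower signal (log2 ratio -1.05). The other had 2789 and 1322, a 2.11-fold lower signal (log2 ratio -1.08). The wild-type array was thus the higher with both probe sets, and the ratios of the probe sets, which the annotation ties to different transcript records, differed by less than the probe error of all genes. Of the 4284 genes with at least 2 measured probe sets, 2.29% were at least 2-fold lower with both of their brightest. The second probe set carries the _s_at suffix of designs that may hybridise to related transcripts. Of all measured genes, 4.08% had a log2 ratio at or below that of the brightest SPI1 probe set. The arrays were made from whole cultures, in which fewer cells expressing a gene and less RNA per cell cannot be told apart.

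IKZF1 (Entrez gene 395974, chromosome 2) encodes Ikaros, the founding member of its family and a regulator of lymphocyte development. Its brightest probe set had 2732 in wild-type against 1425 in PTIP deficient cells, 1.92-fold lower with a log2 ratio of -0.94. The second had 2440 and 1382, 1.77-fold lower with a log2 ratio of -0.82. Both probe sets were lower in PTIP deficient cells and both stayed under the 2-fold bar. The ratio of the brighter was matched or passed downward by 5.14% of all measured genes. IKZF1 lies on the same chromosome as PAXIP1, chromosome 2 in the GRCg7b annotation, where the median log2 ratio of 764 measured genes was 0.01.

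EBF1 (Entrez gene 395512, chromosome 13) encodes early B cell factor 1, which opens and activates B cell genes ahead of PAX5. The brightest probe set had signals of 1095 in wild-type against 707 in PTIP deficient cells, 1.55-fold lower (log2 ratio -0.63). With the second the signals were 519 and 274, 1.89-fold lower (log2 ratio -0.92). Both pointed the same way, and the distance between them was within the probe error.

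A bar of 1.5-fold, chosen after the values were seen, separates these 3 genes from the others with bright probe sets. SPI1, IKZF1 and EBF1 were at least 1.5-fold lower with both of their brightest probe sets, 3 of the 6 lineage factors that have 2 measured ones, against 5.98% of 4284 genes. With the brightest probe set alone, they were 3 of the 6 genes at or above 131.5 in both arrays, against 8.44% of genes at such signals. Counted against the floor of 31.0 the number was 4 of 8, against 11.5% of all measured genes, but this adds IKZF2, for which no fold is supported. The bar and the genes were both known before this count, which is a description only.

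**Figure D2:**
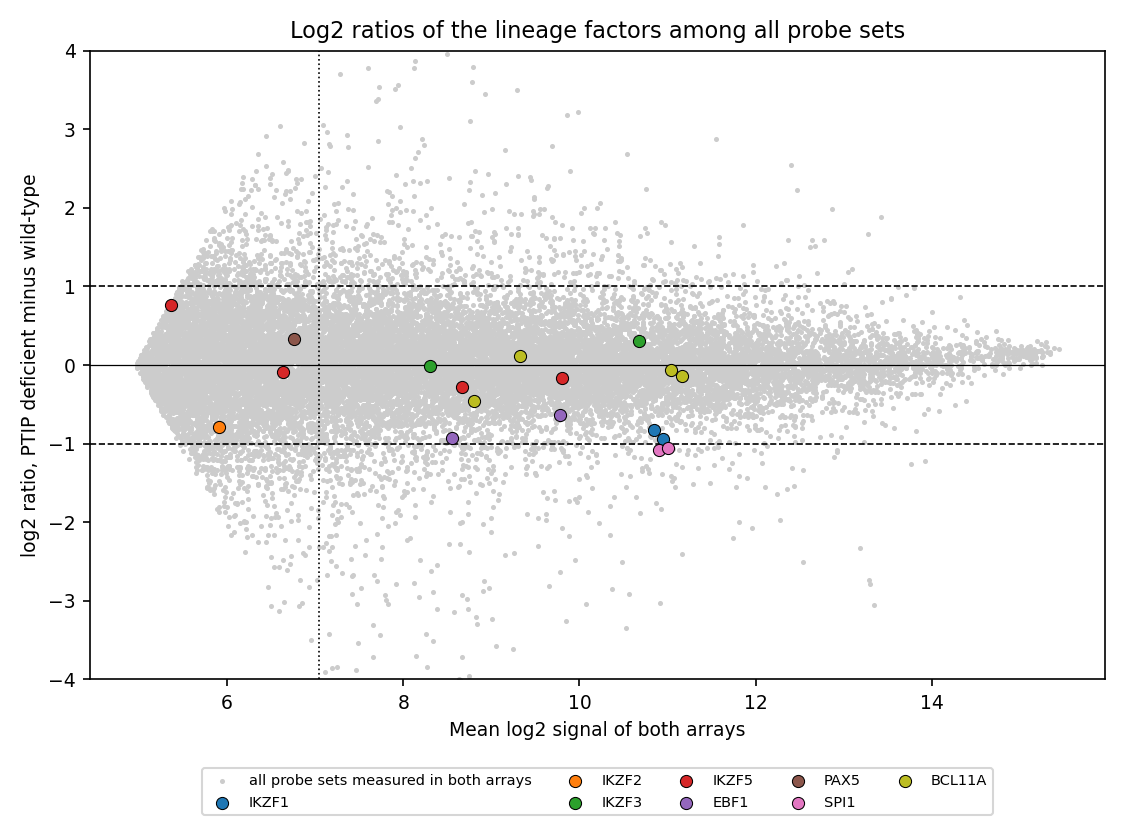
Log2 ratio (PTIP deficient minus wild-type) against mean log2 signal for the probe sets measured in both arrays (grey) and for those of the 8 lineage factors (coloured); dashed lines mark 2-fold, the dotted line the highest reporter signal, and 38 probe sets beyond a log2 ratio of 4 either way are not drawn. The probe sets of SPI1 and IKZF1 lie together near the lower 2-fold line, and those of EBF1 lie at -0.63 and -0.92. Those of BCL11A, IKZF3 and IKZF5 that reach the dotted line lie from -0.46 to 0.31.

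Of the other Ikaros family genes, IKZF3 and IKZF5 were within 1.5-fold with every probe set at or above 131.5 in both arrays, and IKZF2 was too dim for a fold. IKZF3 (Entrez gene 395614, chromosome 27) encodes Aiolos, which acts at later B cell stages in the mouse. Its brightest probe set had 1465 in wild-type against 1814 in PTIP deficient cells, a log2 ratio of 0.31. The other had 316 and 314, a log2 ratio of -0.01. IKZF3 was therefore within 2-fold with both probe sets and the sign of its ratio was not settled. The log2 ratios of IKZF1 and IKZF3 with their brightest probe sets lie apart by more than 0.50, the SD between probe sets of a gene, but with 1 array per genotype that difference was not tested.

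IKZF5 (Entrez gene 430882, chromosome 6) encodes Pegasus, a divergent member of the family that is expressed in many tissues. It has 5 probe sets on the array, of which 2 reached 131.5 in both arrays. The brightest had 948 in wild-type against 843 in PTIP deficient cells, a log2 ratio of -0.17. The second had 445 and 368, a log2 ratio of -0.27. The 3 dim probe sets did not share a direction, with signals of 103 and 96.5, of 31.6 and 53.5, and of 17.6 and 3.18. The bright probe sets of IKZF5 were thus slightly lower in PTIP deficient cells, by less than 0.50, the SD between 2 probe sets of a gene. For a single ratio that SD corresponds to 0.36 over all genes. At bright signals it corresponds to 0.27, about the size of the second ratio.

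IKZF2 (Entrez gene 395309, chromosome 7) encodes Helios, known mostly from T cells and blood progenitors. Its brighter probe set had 79.0 in wild-type against 45.8 in PTIP deficient cells, and the other had 18.3 and 12.5. All 4 values lie under 131.5, so that no level and no fold of IKZF2 is supported in either array.

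PAX5 (Entrez gene 387330, chromosome Z), the factor that commits cells to the B lineage, could not be followed on this array. Its 4 probe sets all stayed under 131.5 in both arrays and disagreed in direction. The brightest had 96.7 in wild-type against 122 in PTIP deficient cells. The second had 107 and 6.97 and was above the floor in wild-type cells alone. The remaining probe sets stayed below the floor throughout, at 23.3 and 8.07 for the third and at 0.75 and 10.2 for the last. A low signal on a probe set is not a low level of the transcript, and these values give neither the presence nor the direction of PAX5.

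BCL11A (Entrez gene 421199, chromosome 3) encodes a zinc finger repressor needed for early B cells in the mouse and known for silencing foetal globin genes in human and mouse. It had 4 probe sets above 131.5 in both arrays, more than any other of the 8 genes. The brightest had 2397 in wild-type against 2183 in PTIP deficient cells (log2 ratio -0.14), and the second had 2142 and 2055 (-0.06). The 2 dimmer ones, both of the _s_at kind, had 618 and 668 (0.11) and 523 and 380 (-0.46). The signals of BCL11A therefore differed little between genotypes where they were brightest, and no probe set of it reached 1.5-fold.

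Close relatives of these factors were dim on the array. Of 15 paralogues listed (among them EBF2, EBF3, the other PAX genes, SPIC and BCL11B), 9 had a probe set, and none reached 131.5 in either array with its brightest one. BCL11B, a T cell factor, had 83.5 and 86.0 in wild-type and PTIP deficient cells. EBF3 had 19.8 and 39.3. The 2 that were above the floor in wild-type cells alone were PAX3, at 126 and 6.90, and PAX2, at 55.5 and 8.92.

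The nearest genes on the chromosome were set beside each factor, taking up to 5 measured genes on either side in the GRCg7b gene order. The 10 neighbours of EBF1 had a median log2 ratio of 0.00, from -0.45 (SPINK7) to 0.77 (RNF145), and those of IKZF1 had a median of -0.09, from -0.36 (RPRD1A) to 1.57 (UBE2QL1). Of the 10 neighbours, 5 were below 0 for EBF1, 6 for IKZF1 and 7 for SPI1, against 47.4% of all measured genes. For EBF1 and IKZF1, 0 were at least 2-fold lower, against 4.46% of all measured genes. Of those of IKZF1, 2 were at least 2-fold higher, against 5.03%. The neighbours of SPI1 had a median of -0.11. The nearest on 1 side, the zinc transporter gene SLC39A13, had signals of 360 and 156 (log2 ratio -1.20, and -0.70 with its second probe set), and the nearest on the other, MADD, had 449 and 748 (0.74, with probe sets from -0.00 to 1.38). SLC39A13 was the only 1 of these 10 that was at least 2-fold lower. The neighbours were named by their position and, for the extremes, after their values were seen.

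**Figure D3:**
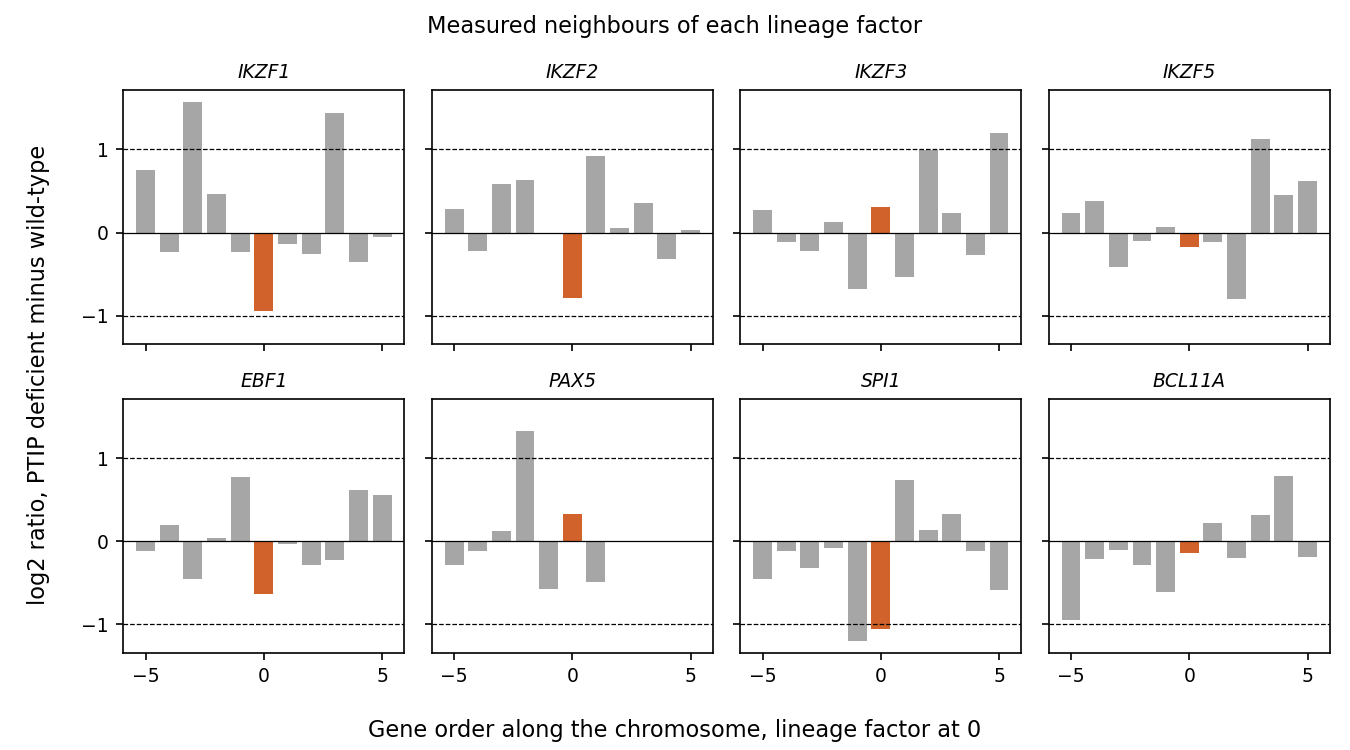
Log2 ratio (PTIP deficient minus wild-type) of each lineage factor (orange, at 0) and of up to 5 measured genes on either side in chromosomal order (grey), with dashed lines at 2-fold. The bars beside IKZF1 and EBF1 point both ways, and SLC39A13, next to SPI1 on its left, is lower at -1.20.

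Genes that PAX5 or EBF1 activate in the mouse were lower in many cases. Of 24 measured in both arrays, 8 passed the 2-fold bar downward and 1 upward (4.46% and 5.03% of all measured genes), and 15 stayed inside it, with a median log2 ratio of -0.44. With both signals at or above 131.5, 6 of 17 were at least 2-fold lower, against 2.79% of 6658 such genes, and the median was -0.20. Because the list was chosen with earlier results of these data known, these shares are not independent of the data. VPREB3 had 1469 in wild-type against 112 in PTIP deficient cells and was at least 11.2-fold lower. IRF4, a factor of activated B cells and plasma cells, had 4312 and 256 and was 16.8-fold lower, and the B cell co-receptor CD72 was at least 22.4-fold lower. IGLL1, an immunoglobulin light chain gene, was 8.28-fold lower with its brightest probe set, an _x_at one, and had log2 ratios from -4.23 to -0.30 over 6 probe sets. IGLL1 entered this list and its counts through its symbol alone. Whether the chicken gene is the counterpart of the mouse target was not tested. ID3, an inhibitor of E proteins, had 43.1 and 564 and was at least 4.28-fold higher. Also at least 2-fold lower, and named after their values were seen, were the lipid kinase subunit PIK3CD (1184 and 150), the receptor component CD79B (9437 and 3732), the coactivator POU2AF1 (8186 and 1943) and the factor FOXO1 (1020 and 499). The kinase genes LYN, at 4170 and 3632, and SYK, at 3034 and 2107, were within 2-fold, as was IRF8, at 2120 and 2046. BCAR3, RAG1 and CD83 were above the floor in PTIP deficient cells alone, at 77.4, 49.5 and 37.0, all under 131.5.

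Genes that PAX5 represses in the mouse did not share a direction. Of 14 measured, 2 passed the 2-fold bar downward and 1 upward when counted against the floor (4.46% and 5.03% of all measured genes), and the median log2 ratio was 0.04. All 3 had a signal under 131.5 in 1 array. The antibody joining chain gene JCHAIN was at least 90.8-fold lower and LY6E at least 1.75-fold lower (231 and 98.3). The T cell co-receptor gene CD8A had 78.2 and 563 and was at least 4.28-fold higher, CD3D had 8831 and 15919 (1.80-fold higher), and CD47 had 1487 and 952 (1.56-fold lower). The plasma cell factor PRDM1, named after its values were seen, stayed below the floor at 17.2 and 20.4, and was 1 of 8 such genes among the 22 on the array. With 9 genes at or above 131.5 in both arrays, 0 were at least 2-fold apart. Of all genes at such signals, 2.79% were at least 2-fold lower, and the share at least 2-fold higher was not counted. Counted against the floor, 9.49% of all measured genes were 2-fold apart or more, a share that matches the count over the 14 and not that over the 9. No test was possible with 1 array per genotype.

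Targets of SPI1 that could be measured were few, and the larger differences among them were downward. Counted against the floor, 3 of 9 were at least 2-fold lower and 0 higher (4.46% and 5.03% of all measured genes), with a median log2 ratio of -0.38. Of the 4 that reached 131.5 in both arrays, 1 was at least 2-fold lower, against 2.79% of all genes at such signals. This list, too, was chosen with earlier results of these data known. The lysosomal protease gene CTSS had 1829 in wild-type against 435 in PTIP deficient cells and was 4.21-fold lower. The NADPH oxidase genes NCF4 (411 and 88.2) and CYBB (225 and 38.1) were at least 3.13-fold and 1.71-fold lower, NCF4 having a second probe set at a log2 ratio of -0.61. ITGB2, the beta chain of leukocyte integrins, had 747 and 23.6 and was at least 5.68-fold lower. The kinase gene BTK was 1.44-fold lower, at 5082 and 3531, and TLR4 had 34.4 and 52.2, both under 131.5. IL7R and LYZ were above the floor in PTIP deficient cells alone, at 40.9 and 36.6.

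Subunits of the complexes that Ikaros recruits were mostly within 2-fold, as were most genes on the array. The list held 29 measured genes of the NuRD, CTBP, SIN3, polycomb and SWI/SNF complexes, the cereblon ligase, and casein kinase and phosphatase partners. Of these, 28 were within 2-fold and 1 was at least 2-fold apart, against 9.49% of all measured genes. Their median log2 ratio was -0.01. The exception was the corepressor CTBP2, at 41.5 and 1881, at least 14.3-fold higher. The next largest were the polycomb subunits EZH2, 1.55-fold lower at 6290 and 4045, and EED, 1.46-fold lower, the deacetylase HDAC7, 1.51-fold higher, and MBD2, 1.38-fold higher. The second measured probe set of HDAC7 had a log2 ratio of -0.02 and that of EED -1.10.

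**Figure D4:**
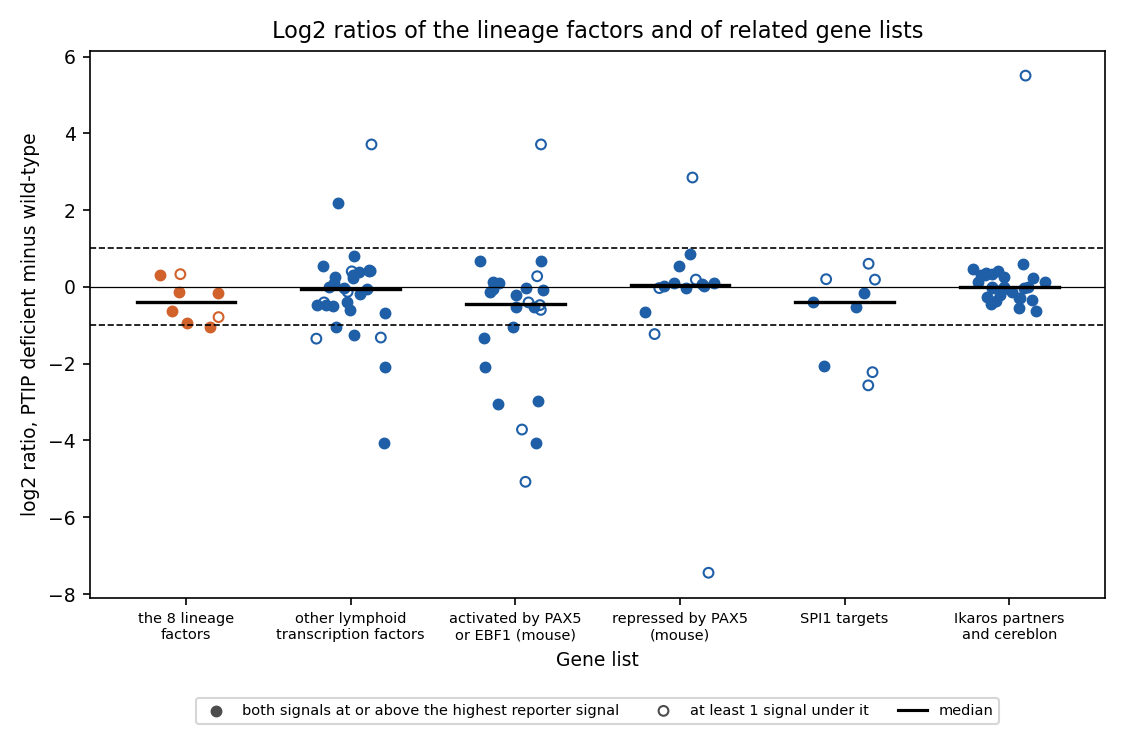
Log2 ratio (PTIP deficient minus wild-type) of each gene measured in both arrays, for the 8 lineage factors (orange) and for 5 related gene lists (blue); filled points have both signals at or above 131.5, open points do not, bars are medians and dashed lines mark 2-fold. The factors spread from -1.05 to 0.33, the medians of genes activated by PAX5 or EBF1 and of SPI1 targets lie at -0.44 and -0.38, and the Ikaros partners centre at -0.01 with CTBP2 far above.

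Other lymphoid transcription factors differed in both directions. Of 31 measured, 6 passed the 2-fold bar downward and 2 upward (4.46% and 5.03% of all measured genes), with a median log2 ratio of -0.05. Besides IRF4, POU2AF1 and ID3, ID2 was 4.56-fold higher (248 and 1129) and the E protein gene TCF4 at least 2.16-fold lower (285 and 112). GATA2 and LMO2, blood progenitor factors, were above the floor in wild-type cells alone, at 73.5 and 53.2, and ETV6 in PTIP deficient cells alone, at 74.1. Of this list 6 genes are also in the list of genes activated by PAX5 or EBF1, which is 19.4% of the first and 25.0% of the second.

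Of the 6 defining B cell markers on the array, 5 reached 131.5 in both arrays, and JCHAIN did so in wild-type cells alone. Counted against the floor, 4 of the 6 were at least 2-fold lower, against 4.46% of all measured genes. Their summed signal was 64848 in wild-type against 13149 in PTIP deficient cells, and IGLL1 and JCHAIN made up most of the difference. Of the 6, 5 are also in the list of genes activated by PAX5 or EBF1, and JCHAIN is in that of genes repressed by PAX5. The markers were likewise chosen with earlier results of these data known. T cell markers had a summed signal of 9659 in wild-type against 17579 in PTIP deficient cells over 13 genes, of which 7 were measured. CD3D made up most of this sum, and CD3D, CD3E and CD8A are also in the list of genes repressed by PAX5. CD8A was at least 4.28-fold and CD5 at least 2.30-fold higher, while CD3E (46.5 and 45.5), CD4, CD28 and LCK were under 131.5 in both arrays. CD247 was 1.37-fold higher and ZAP70 had 53.3 and 45.3. The 9 myeloid markers summed to 2323 and 821, CTSS making up most of this, and CSF1R, CSF3R, LYZ and CEBPA were all under 131.5 in both arrays. Of the 6 measured, CTSS and CYBB had a log2 ratio below 0, as had 47.4% of all measured genes. The other 4, all under 131.5 in both arrays, were above 0, and the median was 0.20. CTSS, CYBB, CSF1R and TLR4 are also in the list of SPI1 targets. The 7 erythroid and thrombocyte markers summed to 451 and 461, of which ITGB3, at 200 and 214, made up the largest share. The part of other cell types in the values of the 8 factors was not tested.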

How the data were processed

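RNA of 1 wild-type and 1 PTIP deficient DT40 culture was hybridised to 1 Affymetrix chicken genome array each. The deposited values are signal intensities made with GCOS, per the submitters' processing notes; neither its version nor its algorithm is recorded there. The mean after trimming at percentiles 2 and 98 came to 499.9 for each array, so the authors' intensity values had been scaled to a common target, and RNA amount per cell cannot be seen. The 96 control probe sets were left out. Log2 ratios, the floor at percentile 40 and all counts were computed with Python 3.11.15, pandas 2.3.3 and statsmodels 0.14.6. Simulated data were used first to test the recovery of planted log2 ratios under the main, median, quantile and loess scalings. The recovery of the SD between probe sets was tested in the same way. The floor, the counts and the gene lists were not tested on simulated data. Genes came from the platform annotation, where 27178 probe sets have 1 symbol, 177 several and 11180 none, and chromosomes and gene order from the GRCg7b RefSeq table. The build behind the array design is not stated, so no coordinates are printed.

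The members and the 10 gene lists were chosen with earlier results of these data known. Symbols alone were matched, without synonyms, which placed 148 of the 204 listed genes other than the members. From each list other than the cell type markers, the text names up to 5 measured genes with the largest absolute log2 ratio and up to 3 with the largest bound. Others are named as stated, and LYN, SYK and IRF8 were named outside this rule with their values known. Among the cell type markers the rule was not kept, and genes were named with their values known. With 1 array per genotype there is no test, and the number of arrays limits the precision. No sequences were used here. Alternatives were other scalings, floors, a pseudocount of 50, all probe sets of a gene, and leaving out _s_at and _x_at probe sets.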

Additional observations from a re-analysis of the deposited data

Results flagged for a closer look

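Of the 57 reporter and marker probe sets, which no comparison above uses other than for the 131.5 mark, 1 had a signal far above the rest in a single array, at 2675 in PTIP deficient against 5.54 in wild-type cells. The other 56 reached at most 131.5 in either array. The files do not name its gene, and its relation to the disrupted alleles was not tested.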

How the results depend on the processing

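SPI1 was at least 2-fold lower under each of the 10 alternatives tried, with log2 ratios from -1.35 to -1.03. IKZF1 ranged from -1.24 to -0.88 and EBF1 from -0.93 to -0.60. For BCL11A the range was -0.43 to -0.13, for IKZF5 -0.47 to -0.16 and for IKZF3 0.01 to 0.32. Changing or dropping the floor, or leaving out _s_at and _x_at probe sets, could not change the ratios of these genes. Their brightest probe sets reach 131.5 in both arrays and are not of those kinds. Under the alternatives that could change it, other than scaling on the hybridisation controls, SPI1 lay from -1.07 to -1.03, close to the bar. PAX5 turned from 0.33 to -0.34 with the mean of all its probe sets, and IKZF2 was at -0.43 with a pseudocount of 50; neither could be given with the floor at 131.5. The count of lineage factors at least 2-fold apart rose from 1 to 3 when the arrays were scaled on the hybridisation controls, which takes 0.30 off each ratio, and was 4 with 1.5-fold as the bar, IKZF2 at signals under 131.5 included; both were chosen after seeing the data. The count of their probe sets was 2, against 6 with that scaling, 6 without a floor, 3 with the pseudocount and 1 without _s_at and _x_at probe sets. Over all gene lists together, 21 genes were at least 2-fold apart, against 13 with the floor at percentile 60, 9 with it at 131.5 and 45 with none. With the main settings 9.49% of all measured genes were at least 2-fold apart. That share was not counted under the other scalings and floors, and the floor also sets how many genes are measured. The shifts in these counts, of lineage factors, probe sets and list genes, therefore cannot be set against it. No paired analysis was possible because each genotype has 1 array, and for the same reason no array could be left out.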
